A study of Homo sapiens with 4 samples.

Results

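The genes described here are the ZNF genes of human chromosome 19, which encode zinc finger proteins. Every gene on the array whose name was ZNF followed by a number and at most 1 capital letter, and whose probe was placed on chromosome 19 by the scanner files, was taken as a member. This gave 248 genes of the 43310 gene names on the array, with 373 of 58201 gene probes. Zinc finger genes with other kinds of names, such as ZFP or ZIM genes, were not included. In the RefSeq table for GRCh38.p14, 245 members had a current symbol and 3 an older one, and 238 were protein-coding and 10 were pseudogenes. The 269 ZNF genes of the other chromosomes, chosen by the same name pattern, served for comparison. The choice of members used no measured value.

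Total RNA of transfected human cancer cells was measured on 1-colour Agilent arrays in a study that concerns PSAT1 and how tumour cells release extracellular vesicles. HCT116 is an established colorectal cancer line and A549 an established lung cancer line. Each line was transfected, with the reagent Dharmafect1, with the microRNA miR-891b or with the negative control NC1, which gives 4 groups of 1 array each. All 4 groups were transfected, and the dose and the time after transfection are not given in the sources used here. With 1 array per group, differences are given by size, and 2-fold or more was counted as a difference called by size.

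Most C2H2 zinc finger proteins bind DNA through a row of fingers, each of which reads a few bases. The largest group carries a KRAB box, which binds TRIM28 (also called KAP1). TRIM28 then recruits the histone methyltransferase SETDB1, HP1 proteins and the NuRD complex, and the bound DNA, often a retrotransposon, is kept in closed chromatin. In the human genome such genes lie in clusters that arose by tandem duplication, and chromosome 19 holds most of these clusters. Not all members are KRAB genes: ZNF444 carries a SCAN domain, and ZNF146 and ZNF260 consist mainly of fingers.

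Values are log2 processed signals minus the array's 75th percentile and are called levels. A probe counted as measured where the scanner software marked it as well above background. This held for 44.7% and 46.0% of gene probes on the HCT116 arrays and for 50.1% and 50.3% on the A549 arrays, and the lowest level with the mark was higher on the HCT116 arrays (-3.55 and -3.14) than on the A549 arrays (-3.96 and -3.93). No gene spot was saturated. Both HCT116 arrays were on one slide and scan and both A549 arrays on another, so the line and the slide cannot be told apart. Areas where dim spots were bright on a single array, called areas of stray signal here, held 10.5% of gene spots on HCT116 miR-891b, against 0.0213% to 2.20% on the other 3 arrays. Of the markers of A549, 6 of 7 were higher in A549 on both pairs of arrays, and SFTA1P was higher in HCT116. Of the markers of HCT116, 5 of 7 were higher in HCT116 on both pairs and LGALS4 was higher in A549, while GPA33 was not well above background in either line. For fibroblasts, which the culture protocol also names, 2 of 8 markers were well above background on each HCT116 array and 4 of 8 on each A549 array. COL1A2, COL3A1, DCN and POSTN were not well above background on any array, while THY1 and LUM were so on both A549 arrays only, LUM at 1.03 and 3.17. The summed linear signal of this list, in units of the 75th percentile, was 2.67 and 2.22 in HCT116 and 4.28 and 10.6 in A549. The part of such signal in the ZNF differences was not tested.

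The transfected microRNA is shown here because its seed, bases 2 to 8, sets which transcripts it can pair with. The mature sequence is from RefSeq (GRCh38.p14), and capitals mark the seed.
hsa-miR-891b: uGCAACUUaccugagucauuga

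The site that pairs with the whole seed, AAGTTGC, was in 0 of the 373 member probes and in 229 of all 58201 gene probes (0.394%). A probe covers 60 bases of a transcript, so this says nothing about the rest of the transcripts.

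Most of these genes gave a signal in both lines. On all 4 arrays, 157 of 248 members (63.3%) were well above background, compared with 41.7% of all genes and 207 of the 269 ZNF genes on other chromosomes. Both arrays of HCT116 measured 167 members and both arrays of A549 measured 187. A set of 25 members was well above background on both A549 arrays and on neither HCT116 array, which is 10.1% of the members, beside 5.09% of all genes. The opposite pattern held for 7 members (2.82%), beside 1.5% of all genes. Of the 269 ZNF genes on other chromosomes, 8 (2.97%) were measured in A549 only and 4 (1.49%) in HCT116 only. Another 48 members (19.4%) were on no array, beside 41.6% of all genes, and 11 had some other combination. The shares of all genes given here thus include many genes on no array.

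Levels of different probes do not rank transcripts, and the members with the highest signals show why. ZNF865 had levels of 10.85, 10.86, 10.36 and 10.30 on the NC1 and then the miR-891b array of HCT116 and the NC1 and then the miR-891b array of A549, the order used for every set of 4 values below. Its 2 other probes had levels of only -2.36 to 0.03. The other members among the 10 highest were ZNF526, ZNF579, ZNF90, ZNF428, ZNF444, ZNF580, ZNF254, ZNF714 and ZNF226. ZNF526 had levels of 6.93, 6.98, 7.09 and 7.20, and ZNF444 had levels of 4.71, 4.75, 5.02 and 5.23. Both were close to level across the 4 arrays.

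The members lie in 16 position groups when a gap of over 1 Mb between neighbouring probes on hg19 starts a new group. The groups with 16 or more members, and group 8, are described below by their place: group 2 (7.09 to 9.87 Mb, 16 members), group 3 (11.6 to 12.7 Mb, 26 members), group 5 (19.8 to 24.3 Mb, 34 members), group 8 (35.0 to 35.4 Mb, 6 members), group 9 (36.7 to 38.2 Mb, 26 members), group 12 (44.0 to 45.6 Mb, 24 members), group 15 (52.1 to 54.1 Mb, 40 members) and group 16 (56.0 to 59.0 Mb, 60 members). Groups 1 to 5, below 25 Mb, are on the short arm and hold 82 members. The long arm holds 166. Dim and measured genes were interspersed along the chromosome. The longest run of neighbouring members on neither array of a line had 5 genes in each line, ZNF570 to ZNF781 in HCT116 and ZNF441 to ZNF700 in A549, and 2 genes of each run were measured in the other line. 

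**Figure D1:**
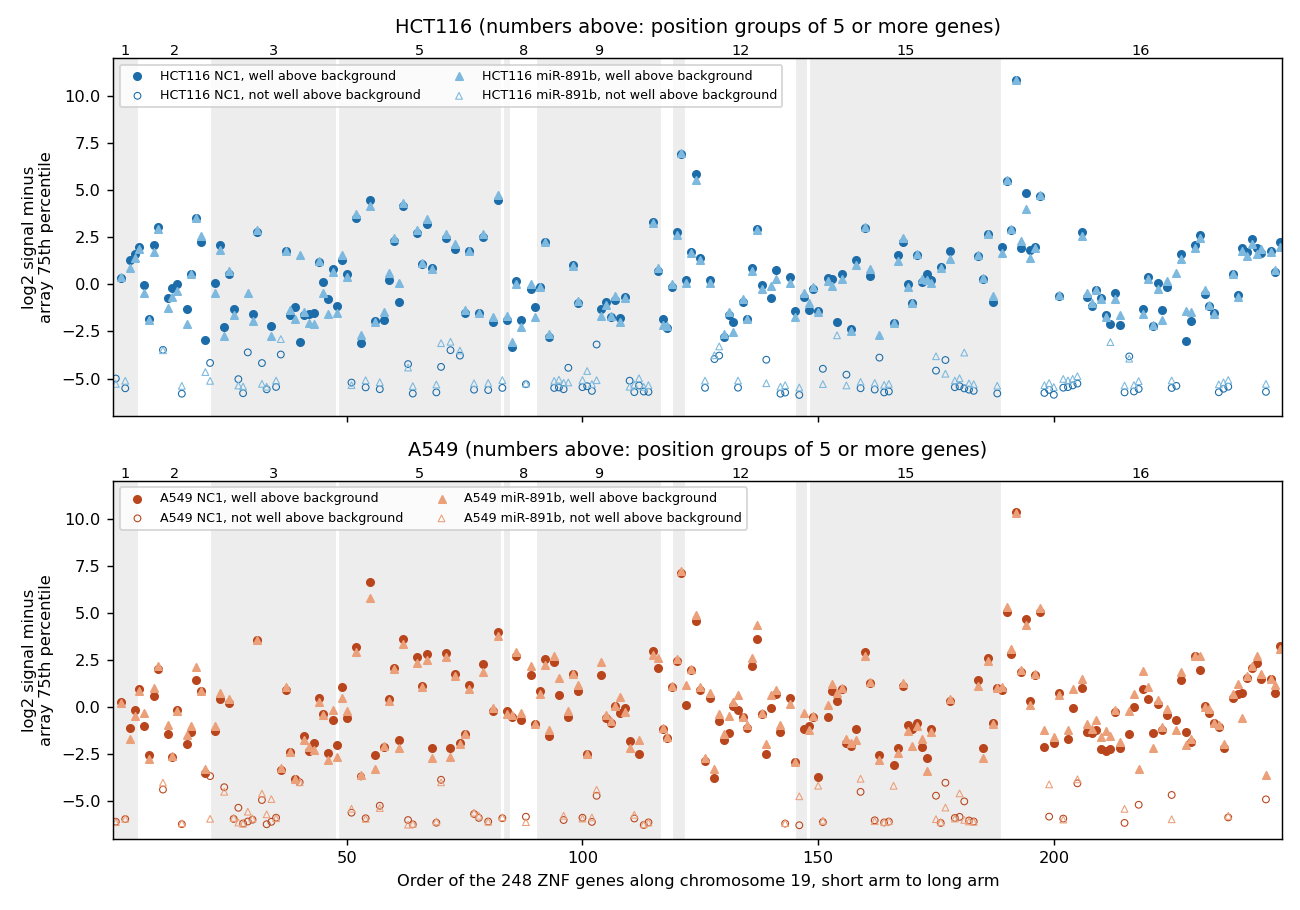
Levels of the 248 ZNF genes in their order along chromosome 19, with HCT116 above and A549 below; circles are NC1 arrays, triangles are miR-891b arrays, open symbols are not well above background, and shading and numbers mark position groups. Measured and dim genes lie side by side in every larger group, and 167 members were measured on both HCT116 arrays against 187 on both A549 arrays.

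Of the 25 members measured in A549 only, 22 were on the long arm and 3 (ZNF20, ZNF676 and ZNF492) on the short arm. By group, 6 were in group 9, 6 in group 12, 8 in group 16, 2 in group 15, 2 in group 5 and 1 in group 3. Where a probe was well above background in one line only, the difference is a bound: the bright level against the higher of the dim probe's own level and the lowest level with the mark on that array. All statements on such genes are given as "at least", first for the NC1 pair and then for the miR-891b pair.

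ZNF260, a gene of fingers without a KRAB box, had the largest bound of these 25 members. Its probe (hg19, as all probe positions here, chr19:37001604-37001663, minus strand) had levels of -5.50, -5.12, 2.38 and 2.71, so that both A549 arrays stood far above both HCT116 arrays. It was at least 60.8-fold and at least 57.7-fold higher in A549. A second probe of ZNF260 had the same pattern. Its neighbour ZNF529 (chr19:37035565-37035624, minus strand), in the same group, had levels of -5.47, -5.06, 0.62 and 1.52, at least 17.9-fold and 25.2-fold higher in A549. ZNF461, the next member measured in A549 only, was at least 8.12-fold and 7.50-fold higher, with levels of -4.43, -5.21, -0.53 and -0.23. ZNF382, between ZNF529 and ZNF461, was on no array, with levels of -5.56, -5.22, -6.00 and -5.78. A dim gene thus lay between measured ones in this cluster.

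ZNF331, an imprinted gene in human tissues, lies at the end of group 15 (probe chr19:54083408-54083467, plus strand). Its levels were -5.79, -5.38, 0.99 and 0.98, at least 23.3-fold and 17.3-fold higher in A549, and its 2 other probes were also measured on both A549 arrays and on no HCT116 array. In group 16, ZNF773 had levels of -5.69, -5.34, 0.00 and 0.68 (at least 11.7-fold and 14.1-fold higher in A549). ZNF71 had levels of -5.36, -5.02, -0.04 and 0.93 (at least 11.4-fold and 16.7-fold). Both genes lay in an area of stray signal on HCT116 miR-891b, and they were dim on both HCT116 arrays. In group 12, ZNF284 had levels of -5.48, -5.11, -0.14 and 0.61 (at least 10.6-fold and 13.4-fold), and ZNF285 had levels of -5.80, -5.44, -1.33 and -0.97 (at least 4.65-fold and 4.49-fold). Other members of this kind were ZNF155 (at least 6.98-fold and 6.91-fold), ZNF256, ZNF419, ZNF432, ZNF470, ZNF542P, ZNF570, ZNF583 and ZNF606.

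Not every member of the 25 showed a sizeable difference. ZNF20 had levels of -3.72, -2.90, -3.35 and -3.23, so the lines overlapped, and its other probe was measured on 1 HCT116 array and on no A549 array. ZNF221, with levels of -3.96, -3.76, -3.76 and -3.30, gave no bound above 1 on either pair. ZNF676 was at least 2.46-fold and 1.33-fold higher in A549.

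The 7 members measured in HCT116 only were ZNF833P, ZNF441, ZNF700, ZNF844, ZNF563, ZNF91 and ZNF816. The first 5 lie in group 3, ZNF91 in group 5 and ZNF816 in group 15. ZNF816 (chr19:53452725-53452784, minus strand) had levels of 0.93, 0.88, -6.16 and -6.11, at least 29.5-fold and 28.1-fold lower in A549. Both HCT116 arrays agree closely and both A549 arrays are near the lowest levels of any member. ZNF91, a KRAB protein that binds SVA retrotransposons, had levels of -1.50, -1.52, -5.89 and -5.77, at least 5.49-fold and 5.32-fold lower in A549, while its 2 other probes were on no array. ZNF441 had levels of -1.31, -1.62, -5.94 and -5.89 (at least 6.26-fold and 4.96-fold lower), and its other probe was on no array. ZNF700 had levels of -1.55, -1.96, -5.99 and -5.93 (at least 5.31-fold and 3.92-fold lower).

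ZNF563 belongs to this set by the mark alone. Its levels were -3.07, 1.57, -4.00 and -4.00, with only the HCT116 miR-891b array high, and there its spot lay in an area of stray signal, where 14.8% of the nearby dim spots were bright. On the NC1 pair it was at least 1.85-fold lower in A549. The part of the stray signal in these values was not tested. Among all 32 members measured in 1 line only, 14 had 19 other probes: 6 of those probes repeated the pattern, 8 were on no array, and 1, a probe of ZNF20, was measured on an array of the opposite line. Leaving out the areas of stray signal, an alternative chosen after the data were seen, gave 24 members in A549 only and 6 in HCT116 only.

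**Figure D2:**
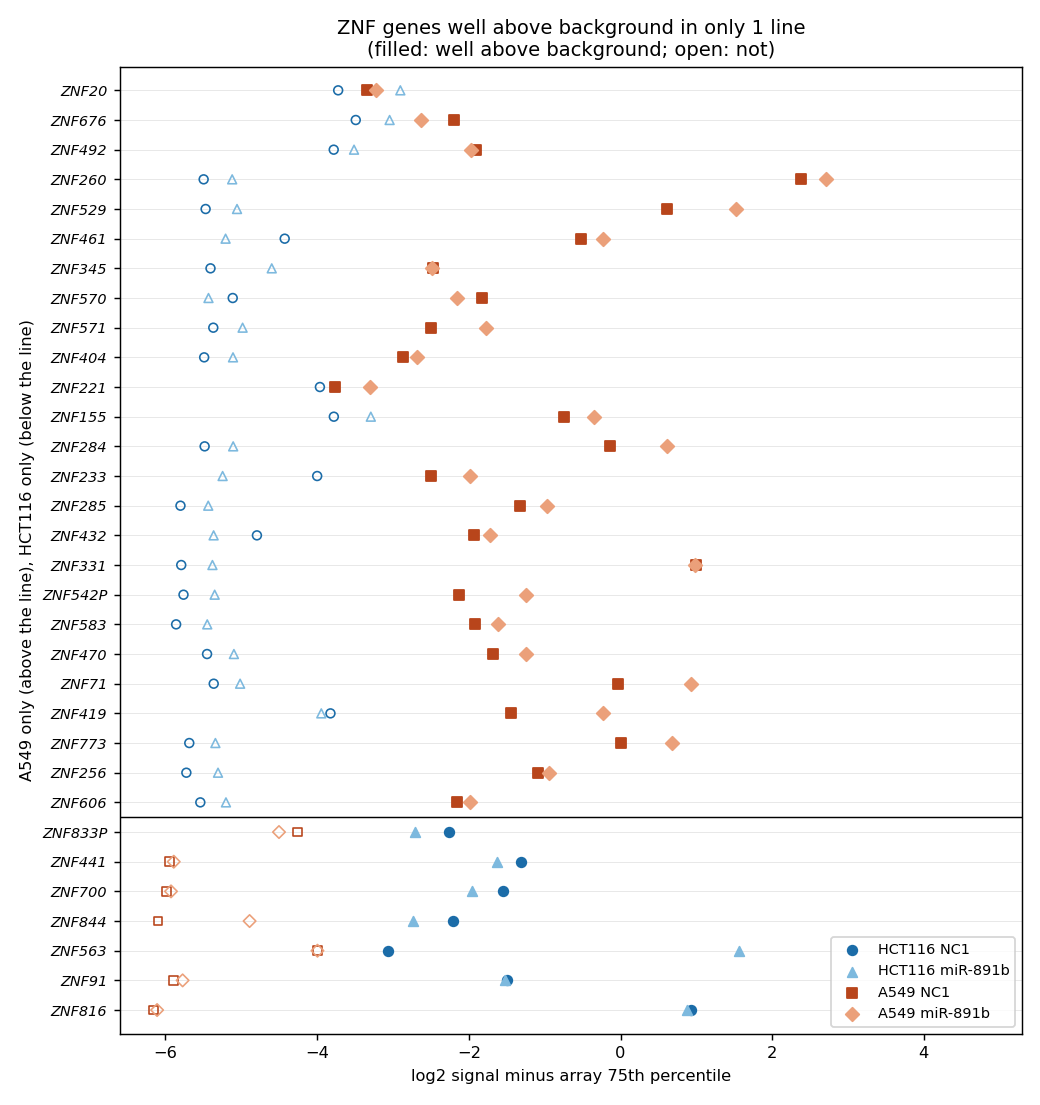
Levels of the 32 ZNF genes measured in 1 line only, 1 gene per row in chromosome order, with the 25 A549-only genes above the line and the 7 HCT116-only genes below; filled symbols are well above background and open ones are not. The lines are far apart for ZNF260, ZNF529, ZNF331 and ZNF816, close for ZNF20 and ZNF221, and ZNF563 is high on 1 array.

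The 48 members on no array included ZNF382 and ZNF154, which are silenced by promoter methylation in several cancers, and ZNF677. Methylation was not measured here, and its part in the dim levels was not tested. ZNF536, a gene of neurons, ZNF568, ZNF43, ZNF208, ZNF534, ZNF649 and ZNF554 were on no array either. ZNF154 had levels of -5.50, -5.10, -4.67 and -5.96 and ZNF677 had levels of -5.65, -5.29, -6.08 and -6.10, all at the dim end of the arrays. A dim probe gives only a bound and does not show that the transcript was absent. Of the 11 members with another combination, ZNF671 had levels of -5.39, 0.62, -0.69 and -1.24, and on HCT116 miR-891b it lay in an area of stray signal (17.1% of nearby dim spots bright). ZNF69 had levels of -3.61, -0.43, -6.08 and -5.56 and lay in such an area on the same array (13.2%). ZNF93, a KRAB protein that binds LINE-1 elements, was near the limit on every array, with levels of -3.11, -2.68, -3.69 and -3.64.

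RefSeq promoter windows, 250 bases before to 50 bases after the start, were at hand for 209 members (GRCh38.p14). CCGGAAG, the core of sites of ETS transcription factors and 1 of 4 motifs searched on both strands, was in 93 of 209 member promoters (44.5%). It was in 34.1% of the promoters of ZNF genes elsewhere, in 14.2% of protein-coding promoters and in 10.6% of all promoters. GGGCGG, the SP1 box, was in 66.5%, 61.1%, 58.3% and 44.5% of the same sets. ATGGCGGC, the core of YY1 sites, was in 5.26%, 3.85%, 4.42% and 3.18% of the same sets. For TGACGTCA, the CREB site, the shares were 3.35%, 4.33%, 2.56% and 1.97%. A match is a run of letters and not a measured site.

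By detection, CCGGAAG was in 10 of the 19 promoters at hand of members measured in A549 only, in 2 of 6 in HCT116 only, in 60 of 137 on all 4 arrays and in 15 of 37 on no array. The median number of CpG dinucleotides in the window was 21, 15, 21 and 18 in these sets, against 20 for all member promoters, 22 for protein-coding promoters and 13 for all promoters. Across the 137 members on all 4 arrays with a promoter, which share their 4 arrays, the number of CpG had an r of 0.14 with the mean level and -0.06 with the mean line difference. The 4 promoters below belong to 2 genes measured in A549 only, 1 measured in HCT116 only and the gene with the highest signal. Capitals mark CCGGAAG or its reverse complement CTTCCGG. In ZNF256 the matches of the 2 strands overlap.
ZNF256 (GRCh38.p14, chr19:57947657-57947956, minus strand): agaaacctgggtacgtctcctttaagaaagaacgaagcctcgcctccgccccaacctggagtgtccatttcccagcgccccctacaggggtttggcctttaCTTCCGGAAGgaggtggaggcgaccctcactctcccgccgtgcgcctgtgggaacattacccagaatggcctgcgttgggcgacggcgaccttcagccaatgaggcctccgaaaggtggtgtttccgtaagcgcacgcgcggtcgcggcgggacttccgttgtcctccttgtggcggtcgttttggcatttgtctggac
ZNF284 (GRCh38.p14, chr19:44071909-44072208, plus strand): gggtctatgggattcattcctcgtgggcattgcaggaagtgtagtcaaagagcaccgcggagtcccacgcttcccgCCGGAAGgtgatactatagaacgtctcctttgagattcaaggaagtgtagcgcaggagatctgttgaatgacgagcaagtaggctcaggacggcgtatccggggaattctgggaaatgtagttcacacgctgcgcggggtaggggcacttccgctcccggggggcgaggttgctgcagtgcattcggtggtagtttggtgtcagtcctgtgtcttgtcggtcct
ZNF816 (GRCh38.p14, chr19:52962832-52963131, minus strand): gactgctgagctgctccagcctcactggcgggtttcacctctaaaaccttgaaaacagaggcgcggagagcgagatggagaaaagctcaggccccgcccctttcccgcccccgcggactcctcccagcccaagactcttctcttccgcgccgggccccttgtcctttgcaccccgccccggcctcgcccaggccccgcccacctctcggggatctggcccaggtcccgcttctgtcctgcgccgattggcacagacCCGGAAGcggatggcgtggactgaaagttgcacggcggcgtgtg
ZNF865 (GRCh38.p14, chr19:55605397-55605696, plus strand): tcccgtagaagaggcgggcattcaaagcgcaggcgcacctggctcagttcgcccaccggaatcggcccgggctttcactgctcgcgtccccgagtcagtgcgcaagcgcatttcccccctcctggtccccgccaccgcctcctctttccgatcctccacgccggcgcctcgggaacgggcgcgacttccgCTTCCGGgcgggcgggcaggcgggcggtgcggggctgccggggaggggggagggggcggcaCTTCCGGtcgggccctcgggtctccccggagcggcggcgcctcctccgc

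ZNF256, whose window is shown first, had levels of -5.72, -5.31, -1.09 and -0.94, and was at least 5.50-fold and 4.57-fold higher in A549.

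The next comparison is the difference between the lines, taken as A549 minus HCT116 on the NC1 arrays and, with no array in common, on the miR-891b arrays. On the NC1 pair, 162 members were measured on both arrays, and 21 of them were 2-fold or more higher in A549 (13.0% of members), beside 11.1% of all genes. Another 33 were 2-fold or more lower in A549 (20.4%), beside 16.2% of all genes. On the miR-891b pair, 25 of 160 were higher, beside 11.4% of all genes, and 33 were lower, beside 20.7%. The median difference of the members was -0.20 on the NC1 pair and -0.14 on the miR-891b pair, compared with -0.10 and -0.19 for all genes. Scaling on the median of measured probes moved the median of all genes on the miR-891b pair from -0.19 to -0.08. Under that scaling, 28 members were higher and 25 lower in A549 on that pair. Across the 157 members on all 4 arrays, the differences on the 2 pairs had an r of 0.91, as a description of genes that share 2 slides.

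The 2 arms had medians of opposite sign. On the short arm the median difference was -0.67 on the NC1 pair and -0.78 on the miR-891b pair, with 52 members measured on each. Of these, 2 were 2-fold or more higher and 15 lower on the first pair, and 2 higher and 18 lower on the second. On the long arm the medians were 0.09 and 0.22, with 19 higher and 18 lower of 110 on the first and 23 higher and 15 lower of 108 on the second. Of all genes, 11.1% were higher and 16.2% lower on the NC1 pair, and 11.4% and 20.7% on the miR-891b pair.

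**Figure D3:**
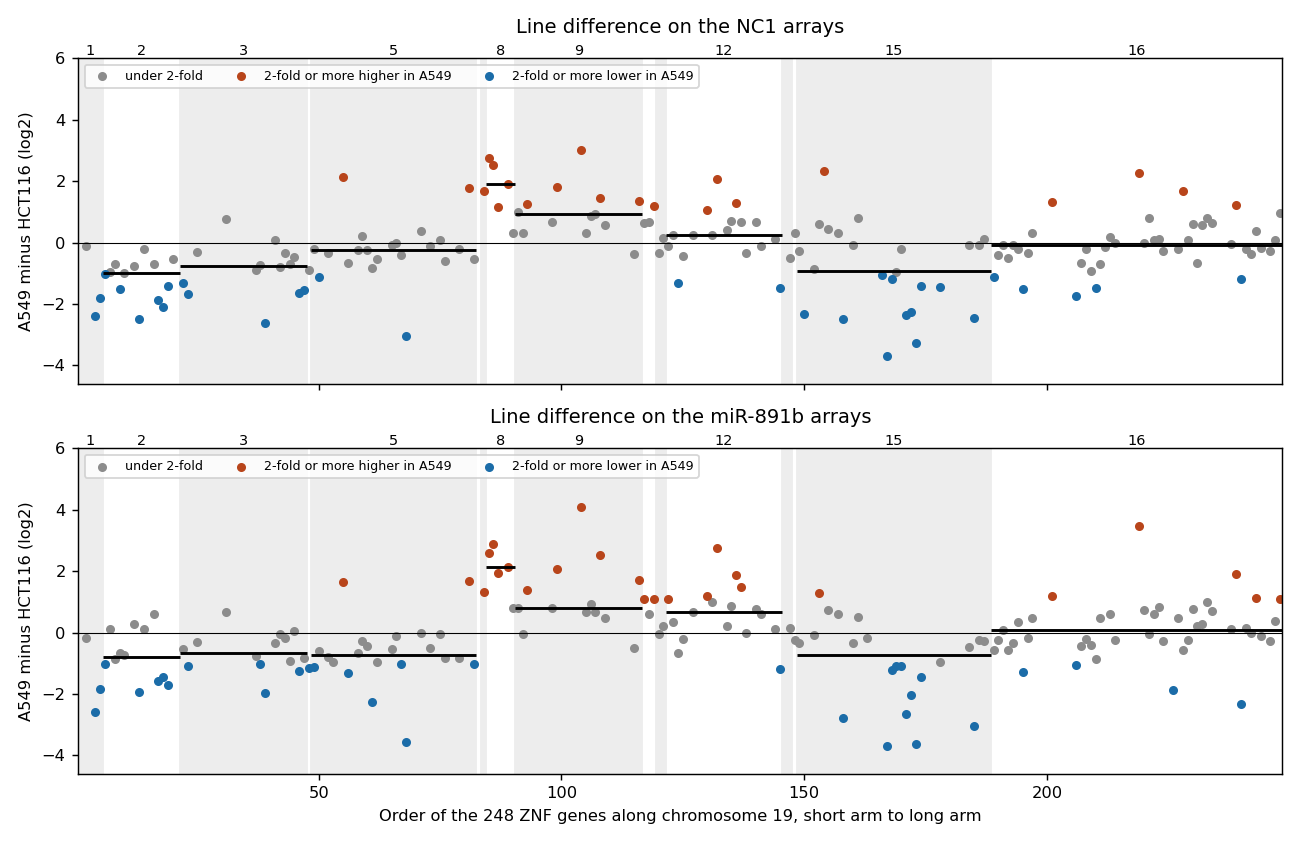
Difference between the lines (A549 minus HCT116, log2) of the members measured on both arrays of a pair, in chromosome order, for the NC1 pair above and the miR-891b pair below; black bars are medians of position groups with 5 or more measured members. The medians of groups 2 and 3 lie below 0 on both pairs, those of groups 8 and 9 above 0, and group 15 is spread from -3.71 to 2.33 on the NC1 pair.

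In group 2, the median difference was -0.99 on the NC1 pair (13 members) and -0.80 on the miR-891b pair (12 members), and 6 and 5 members were 2-fold or more lower in A549 with none higher. ZNF177 had levels of -0.18, -0.68, -2.68 and -2.61, lower in A549 by 2.50 and 1.92 on the log2 scale. ZNF121 had levels of 0.57, 0.56, -1.32 and -1.01, and ZNF561 had levels of 3.53, 3.53, 1.42 and 2.10. In each of these genes both A549 arrays were below both HCT116 arrays. The non-member genes between the ends of this group had a median of -0.91 on the NC1 pair (43 genes) and -0.80 on the miR-891b pair (43 genes), so the lower levels in A549 were shared by the neighbours. The ZNF genes of the much smaller group 1, at 2.84 to 2.93 Mb, included ZNF57 (1.27, 0.86, -1.13 and -1.71) and ZNF77 (1.64, 1.38, -0.16 and -0.47), both lower in A549. ZNF57 lay in an area of stray signal on HCT116 NC1.

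Group 3 had medians of -0.77 and -0.65 (14 members on each pair). ZNF44 had levels of -1.18, -1.85, -3.81 and -3.82, and ZNF490 had levels of -0.80, -1.59, -2.43 and -2.82. ZNF763 went the opposite way in the same group, with levels of 2.79, 2.89, 3.57 and 3.57. Its difference of 0.78 and 0.68 stayed under 2-fold. Non-member genes in this interval had medians of -0.04 (7 genes) and -0.54 (8 genes). With normexp background correction and quantile normalization the medians of group 3 were -0.35 and -0.22.

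Group 5, the cluster near the centromere that holds ZNF91, ZNF43 and their relatives, had medians of -0.23 and -0.72. ZNF100 was the member most lower in A549 here, with levels of 0.85, 0.83, -2.20 and -2.73 (line effect -3.30, SE 0.263, adjusted p = 0.00297 in the limma model). ZNF90 went the opposite way, with levels of 4.46, 4.17, 6.61 and 5.80, and its 2 other probes were on no array. ZNF726 was also higher in A549, with levels of -1.99, -1.74, -0.22 and -0.07. Several paralogs were nearly level between the lines, such as ZNF257 (2.48, 2.66, 2.86 and 2.64), ZNF85 (2.31, 2.47, 2.08 and 2.04) and ZNF675 (2.49, 2.67, 2.28 and 1.85). These genes are close copies, so a probe may also bind the transcript of a relative.

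The long arm begins with the opposite pattern. In group 8, all 5 measured members were higher in A549 on both pairs, with medians of 1.91 and 2.15, and 4 of the 5 were 2-fold or more higher on each pair. ZNF302 had levels of 0.17, 0.04, 2.70 and 2.94 (line effect 2.71, SE 0.247, adjusted p = 0.0041 in the limma model). Its other probe differed by 1.26 and 1.39. ZNF807 had levels of -3.30, -3.04, -0.54 and -0.44, and ZNF30 had levels of -0.22, 0.02, 1.69 and 2.16. Both lines' arrays were well apart for each of them. The 4 measured non-member genes in this interval had medians of 0.36 and 0.05. With normexp and quantile normalization the medians of group 8 were 0.72 and 0.78.

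In group 9, 12 of 13 members on the NC1 pair and 11 of 13 on the miR-891b pair were higher in A549, with medians of 0.92 and 0.81. On each pair, 5 were 2-fold or more higher and none lower. ZNF420, a KRAB protein that represses p53 activity, was the member most higher in A549 among those measured on both arrays, with levels of -1.33, -1.68, 1.69 and 2.41 (line effect 3.56, SE 0.350, adjusted p = 0.00494 in the limma model). Its 2 other probes were measured on both A549 arrays and on no HCT116 array. ZNF850 had levels of -0.98, -0.89, 0.83 and 1.19. ZNF527 had levels of -1.76, -2.01, -0.30 and 0.51. ZNF607 was the exception on both pairs, with levels of 3.32, 3.26, 2.96 and 2.75, and ZNF146 was near level, with 2.24, 2.25, 2.56 and 2.21. Non-member genes of this interval also had medians above 0, 0.68 (10 genes) and 0.90 (8 genes), and 5 of its 35 non-member genes were measured in A549 only. The members' medians were 0.41 and 0.33 with normexp and quantile normalization.

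Group 12, which holds the close relatives ZNF221 to ZNF235, had medians of 0.24 and 0.67. ZNF223 had levels of -2.01, -2.51, 0.08 and 0.24, and ZNF234 had levels of 0.90, 0.71, 2.20 and 2.60, both higher in A549. ZNF224, a repressor first studied at the aldolase A gene, was nearly level with -0.95, -0.75, -0.52 and -0.53. At the ends of the group, ZNF428 (5.87, 5.52, 4.55 and 4.88) and ZNF296 (-1.43, -1.74, -2.92 and -2.93) were lower in A549. The other probe of ZNF428 differed by only -0.08 on the NC1 pair and 0.21 on the miR-891b pair. ZNF223 lay in an area of stray signal on HCT116 NC1.

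Group 15 had the widest spread on the NC1 pair, from -3.71 to 2.33. Its medians were -0.92 on the NC1 pair (24 members) and -0.71 on the miR-891b pair (22 members), with 11 and 10 members 2-fold or more lower in A549 and 1 higher on each. Without the probes in areas of stray signal the medians were -0.29 and -0.35, and with normexp and quantile normalization they were -0.33 and -0.30. Non-member genes in this interval had medians of 0.07 and 0.20 (10 genes on each pair). ZNF808, a primate KRAB gene needed for pancreas development, had the largest difference on the NC1 pair of all members measured on both of its arrays: its levels were 1.54, 1.26, -2.17 and -2.42 (probe chr19:53067543-53067602, plus strand), and the line effect was -3.70 (SE 0.231, adjusted p = 0.00172 in the limma model). On HCT116 NC1 it lay in an area of stray signal, and on the miR-891b pair, where neither spot did, the difference was -3.68. Its other probe was measured on both HCT116 arrays and on neither A549 array.

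The ZNF genes next to ZNF808 shared its direction. ZNF468 had levels of 0.56, 0.23, -2.71 and -3.41, lower in A549 by 3.27 and 3.64 on the log2 scale, and its other probe by 1.00 and 1.82. ZNF600 had levels of 1.54, 1.63, -0.83 and -1.03, and ZNF28 had levels of 0.13, 0.31, -2.15 and -1.71. ZNF468 and ZNF28, like ZNF525 below, lay in an area of stray signal on HCT116 miR-891b and on no NC1 array. From ZNF808 to ZNF816, every member measured on all 4 arrays (ZNF808, ZNF701, ZNF137P, ZNF83, ZNF600, ZNF28, ZNF468 and ZNF320) was lower in A549 on both pairs. Further along, ZNF525 was lower in A549 (0.27, 0.34, -2.19 and -2.71), whereas ZNF765 (2.70, 2.68, 2.61 and 2.43) and ZNF845 (1.52, 1.57, 1.43 and 1.11) were nearly level. At the start of the group, ZNF616 had levels of 1.31, 1.03, -1.18 and -1.76, while the nearby ZNF615 had levels of -2.01, -2.70, 0.32 and 0.72 and was higher in A549. The ZNF615 probe was not well above background on HCT116 miR-891b. ZNF350, also called ZBRK1, was higher in A549 as well, with 0.27, -0.06, 0.87 and 1.24.

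Group 16, at the end of the long arm, had medians near 0 (-0.08 and 0.10), and the first became 0.01 with median scaling. ZNF550 had the largest difference here among members measured on all 4 arrays, with levels of -1.32, -1.57, 0.95 and 1.90, but its other probe differed by only 0.52 and 0.29. ZNF274, which binds the 3′ ends of other zinc finger genes and brings SETDB1 to them, was higher in A549, with levels of -0.54, -0.69, 0.68 and 1.21. ZNF304, a repressor studied in colorectal cancer cells, was lower in A549, with -0.74, -0.76, -2.21 and -1.61. ZNF264 was lower too (2.78, 2.58, 1.03 and 1.51). Members of this group on the 2 sides of 0 lay next to each other, and the group also holds 8 of the A549-only members.

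Line and transfection were then fitted together as additive terms in limma, on all 4 arrays, so that each line was represented by its 2 differently transfected arrays. The model leaves 1 residual degree of freedom per gene, which is how far the miR-891b change differs between the lines. Its p-values rest on this residual, pooled over genes. They do not measure a spread between replicates and cannot separate line from slide. With Benjamini-Hochberg adjustment over 22712 genes, the line term passed an adjusted p of 0.05 for 43 members higher in A549, beside 15.5% of all genes tested, and for 36 members lower, beside 16.4%, out of 197 members tested. Of these 79 members, 28 entered the test only through the line where they were measured (22 in A549, 6 in HCT116), and for them the call follows from how they entered. Among the 157 members measured on all 4 arrays, 20 were higher and 28 lower (30.6%), compared with 25.5% of all genes measured on all 4 arrays. By arm, 2 were higher and 13 lower of 51 on the short arm, and 18 were higher and 15 lower of 106 on the long arm. Of all genes measured on all 4 arrays, 9.74% were higher and 15.8% lower. With normexp and quantile normalization 31 members were higher and 23 lower.

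Different probes of a gene did not always agree. On the NC1 pair, 38 members had 2 or more probes measured on both arrays, and in 10 of them the probes differed in sign. On the miR-891b pair this was so for 8 of 35, and in ZNF254 the probes passed 2-fold in both directions. The ZNF254 probe with the highest signal had levels of 4.50, 4.77, 3.96 and 3.76, lower in A549, whereas its 4 other probes were higher in A549 by 1.12 to 1.99 on the NC1 pair and by 0.84 to 2.12 on the miR-891b pair. For ZNF865 the brightest probe differed by -0.49 and -0.56 and the 2 others by 0.19 to 1.13. For both genes the direction depends on the probe.

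The study's own question concerns miR-891b, and few members differed 2-fold or more between miR-891b and NC1. In HCT116, 167 members were measured on both arrays. The 3 members 2-fold or more higher with miR-891b (beside 1.16% of all genes) were ZNF563, ZNF586 and ZNF430, and no member was 2-fold or more lower (beside 0.843% of all genes). The median change was -0.02, compared with -0.04 for all genes. ZNF563, described above, and ZNF586 (levels of -3.02 and -1.44 in HCT116) were both in areas of stray signal on the miR-891b array. ZNF430 did not, with levels of -0.93 and 0.08 and a change of 1.01, but its other probe changed by -0.12. Without the areas of stray signal, 1 member was 2-fold or more higher. The lowest change was that of ZNF580, -0.83, from 4.85 to 4.02. ZNF490 and ZNF426 had changes of -0.79 each, ZNF44 of -0.67 and ZNF564 of -0.59, and ZNF426 lay in an area of stray signal on HCT116 NC1. At the other end, ZNF749 had a change of 0.54.

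In A549, 187 members were measured on both arrays. With miR-891b, 3 members were 2-fold or more higher (beside 4.01% of all genes), namely ZNF419, ZNF547 and ZNF575, and 1, ZNF544, was 2-fold or more lower (beside 5.57% of all genes). The median change was 0.11, compared with -0.06 for all genes and 0.06 for ZNF genes elsewhere. ZNF575 had levels of 0.11 with NC1 and 1.18 with miR-891b. ZNF547 had levels of -2.35 and -1.27, and its other probe, not well above background with NC1, changed by 0.76. ZNF419 had levels of -1.44 and -0.23, but the mean over its probes changed by 0.58, under 2-fold. Its probe lay in an area of stray signal on HCT116 NC1 and on neither A549 array, and the change was 0.17 at the probe used when such probes were left out. ZNF544 had levels of 0.73 and -0.58, and its other probe changed by -0.40. The next lowest were ZNF83 (-0.86), ZNF90 (-0.81), ZNF530 (-0.80) and ZNF486 (-0.72), all short of 2-fold. None of ZNF419, ZNF547, ZNF575 and ZNF544 passed 2-fold with normexp and quantile normalization.

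No member was 2-fold or more higher in both lines, lower in both lines, or past 2-fold in opposite directions. Across the 157 members on all 4 arrays, the changes in HCT116 and in A549 had an r of -0.09 and a rho of -0.10. In the additive limma model, the miR-891b term passed an adjusted p of 0.05 for none of the 197 members tested, beside 0.0% of all 22712 genes tested. At an unadjusted p under 0.05, 1 member and 1214 genes passed. That member was ZNF235, which was higher with miR-891b by 0.61 in HCT116 and by 0.68 in A549, with levels of -0.72, -0.11, -0.04 and 0.65 (adjusted p = 0.793 in limma). Its other probe, also measured on all 4 arrays, changed by -0.13 in HCT116 and by 0.72 in A549, so the direction in HCT116 depends on the probe.

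**Figure D4:**
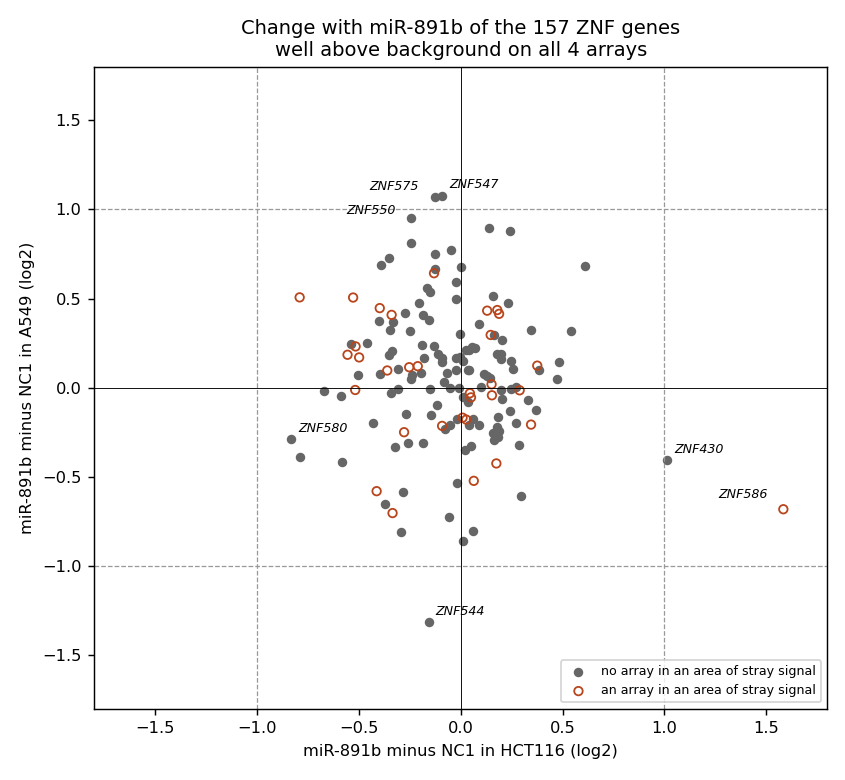
Change with miR-891b (log2, miR-891b minus NC1) in HCT116 on the horizontal axis and in A549 on the vertical axis, for the 157 ZNF genes measured on all 4 arrays; dashed lines mark 2-fold, and open symbols are genes in an area of stray signal on some array. No gene lies past 2-fold in both lines, and ZNF586 and ZNF430 on one axis and ZNF547, ZNF575 and ZNF544 on the other are the genes past 2-fold.

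The proteins that KRAB zinc fingers work through were taken from a list of 40 corepressor gene symbols. TASOR and its older name FAM208A were both listed and are the same gene. The array held 39 of the symbols, with that gene as FAM208A. All 39 were measured on all 4 arrays. In the additive limma model, 13 of 39 were lower in A549, beside 15.8% of all genes measured on all 4 arrays. Another 4 were higher, beside 9.74% of those genes. Of all genes tested, including those measured in 1 line only, 16.4% were lower and 15.5% higher. TRIM28 itself had levels of 6.07, 5.83, 5.20 and 4.77, lower in A549 by 0.97 on the log2 scale (SE 0.235, adjusted p = 0.0445 in limma). SETDB1 had levels of 4.43, 4.31, 4.10 and 3.80, and its adjusted p was 0.237 in limma. Among the others lower in A549 were DNMT3B, a de novo DNA methyltransferase (3.30, 3.57, 1.42 and 1.65), EHMT2, an H3K9 methyltransferase (2.63, 2.26, 0.66 and 0.64), and the histone deacetylases HDAC1 and HDAC2. CHD3, the NuRD remodeller that TRIM28 binds, was the gene most higher in A549, with 2.62, 2.16, 4.67 and 4.63, and CHD4, its paralog, was lower (3.77, 3.81, 2.76 and 2.66). The list's median difference was -0.51 on the NC1 pair and -0.70 on the miR-891b pair, compared with -0.10 and -0.19 for all genes.

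With miR-891b, none of the 39 corepressor genes was past 2-fold in HCT116, beside 1.16% of all genes higher and 0.843% lower. In A549, 4 of the 39 were 2-fold or more lower, beside 5.57% of all genes, and 0 were higher, beside 4.01%. The lower ones included RBBP4 (a change of -1.44), UHRF1 (from 3.73 to 1.94) and SUV39H1 (from 1.20 to -0.11). The list's median change in A549 was -0.30, that of the ZNF members was 0.11 and that of all genes was -0.06. In the limma model, the miR-891b term passed for none of them.

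**Figure D5:**
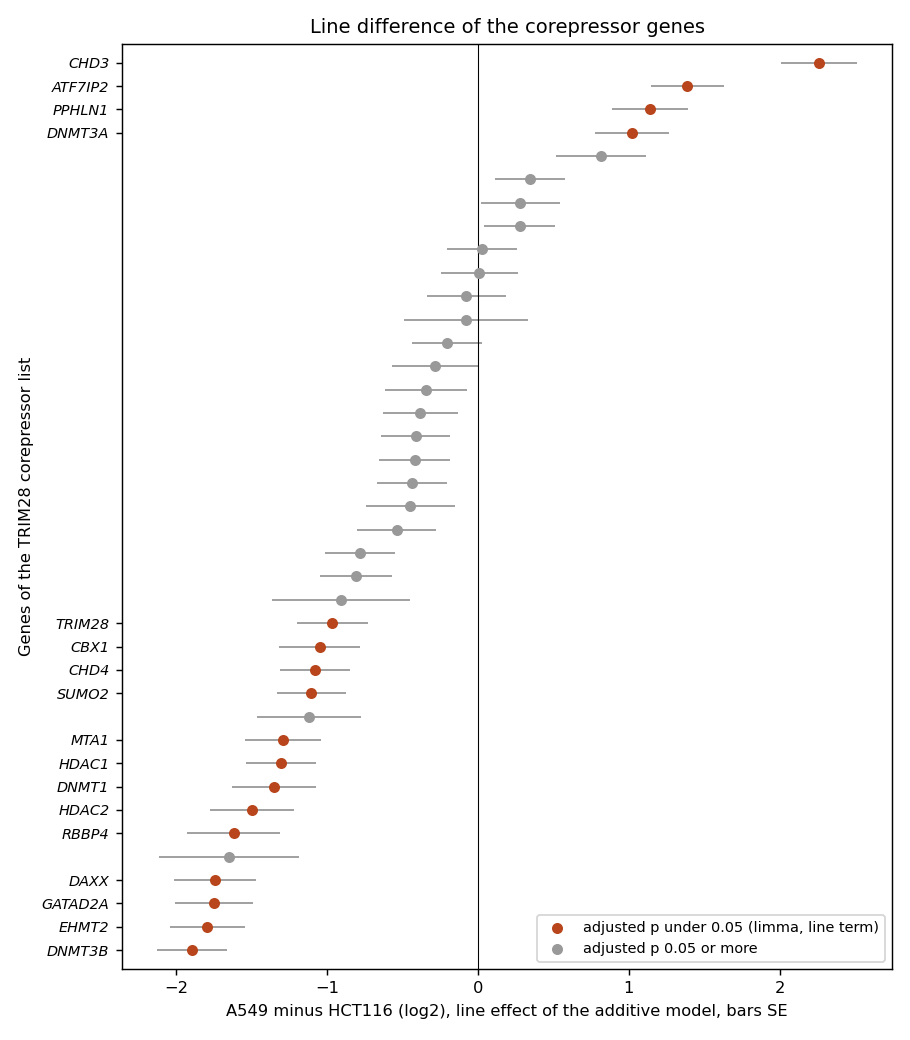
Line effect of the additive limma model (A549 minus HCT116, log2, with SE) for the 39 corepressor genes, sorted by size; coloured points, the ones labelled by name, have an adjusted p under 0.05. The 13 called genes below 0 include TRIM28, HDAC1, HDAC2 and DNMT3B, and the 4 above 0 are DNMT3A, PPHLN1, ATF7IP2 and CHD3.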

How the data were processed

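Total RNA (100 ng per labelling) was hybridised to 4 Agilent 1-colour arrays, 1 per group. The spot intensity was produced by the authors with Agilent Feature Extraction 11.5.1.1, per the file headers, as a linear signal after background subtraction and detrending within the array. The authors' deposited value table is on a log2 scale with no stated centring; set against the scanner files it equals log2 signal minus each array's 75th percentile. Outlier spots were left out, the spots of a probe were averaged, and the probe with the highest mean signal stood for its gene. The additive limma model (limma 3.58.1, R 4.3.3, lmFit and eBayes) used genes well above background on at least 2 of 4 arrays. Other steps used pandas 2.3.3 and numpy 2.4.6 under Python 3.11.15. An area of stray signal is one where at least 10% of dim spots within 10 rows and columns were bright on that array alone. The scripts were tested on simulated data. There the line term of the additive limma model was called for 0 of 40 genes changed 2-fold and 0 of 40 changed 4-fold. It was called for 29 of 40 changed 8-fold. Only 200 of 22712 genes were changed in that simulation, whereas the line term was called for 7249 genes in the data. The miR-891b term was not simulated.

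The members and lists were chosen with earlier results of these data known. By rule, the text names the 10 members with the highest signals, the 5 highest and 5 lowest of each comparison, and the 5 brightest members measured in 1 line only; other members named as examples of a position group were chosen after their values were seen. Alternatives were other normalizations and scalings, the authors' values, the mean over probes, no filter on dim probes, other fold thresholds and leaving out areas of stray signal. Protein features were not analysed here, and 1 gene of the corepressor list is not reported by name. Nothing in the labels says that arrays of a line came from separate cultures, and no p-value here measures a spread between replicates.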

Additional observations from a re-analysis of the deposited data

Results flagged for a closer look

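The change with miR-891b had opposite signs in the 2 lines for the members' median, -0.0232 in HCT116 and 0.105 in A549. The medians of all genes were -0.0409 and -0.0587. With median scaling the members' median in HCT116 was 0.0124, and with no filter on dim probes it was 0.0421, so the signs were then not opposite. The difference was not tested, since each line has 1 array per transfection. In position group 2 (7.09 to 9.87 Mb) the medians were -0.229 in HCT116 (12 members) and 0.23 in A549 (13 members). Non-member genes of that interval had medians of -0.244 and -0.148 (44 genes in each line). Over the normalizations and other settings run, the members' medians ranged from -0.262 to -0.0929 in HCT116 and from 0.0631 to 0.293 in A549. In position group 5 (19.8 to 24.3 Mb) the members' medians ran the opposite way, 0.175 in HCT116 and -0.22 in A549 (23 members in each line). Non-member genes there had medians of -0.0365 (16 genes) and -0.239 (22 genes). The members' medians ranged over the settings from 0.145 to 0.214 and from -0.279 to -0.0686. In position group 12 (44.0 to 45.6 Mb) they were -0.128 in HCT116 (17 members) and 0.297 in A549 (23 members). Non-member genes there had medians of -0.207 (22 genes) and -0.0978 (23 genes). The members' medians ranged over the settings from -0.13 to -0.0358 and from 0.187 to 0.359. The differences between the lines in these groups were not tested either.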

How the results depend on the processing

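No value changed sign as a call under the alternatives run, and 86 alternative values of the main counts stayed within 1.5 times while 32 did not. With normexp and quantile normalization, the line difference gave 6 members higher and 14 lower on the NC1 pair and 12 higher and 11 lower on the miR-891b pair, the miR-891b change gave 1 member higher in HCT116 and 0 higher and 0 lower in A549, and the additive limma model gave 23 members lower. With no filter on dim probes, 48 (NC1 pair) and 55 (miR-891b pair) members were higher in A549, and with miR-891b 8 were higher and 4 lower in HCT116 and 9 higher and 6 lower in A549. At 1.5-fold, 39 were higher and 52 lower on the NC1 pair and 48 higher on the miR-891b pair, 5 were lower with miR-891b in HCT116, and 23 were higher and 10 lower in A549. At 3-fold, 12 were higher and 17 lower on the NC1 pair, 14 higher and 15 lower on the miR-891b pair, 1 higher in HCT116, and 0 higher and 0 lower in A549. Without areas of stray signal, 1 member was higher with miR-891b in HCT116. In A549, median scaling gave 5 higher, and the mean over probes gave 1 higher and 0 lower. Testing only genes well above background on all 4 arrays gave 28 of 157 members higher in the additive limma model. That filter leaves out the members measured in A549 only, of which 22 were called higher in the main fit. Among the 157 members measured on all 4 arrays, the main fit called 20 higher. The causes of the shifts were not tested. No paired analysis was possible because the labels carry no replicate numbers and each group has 1 array; the additive limma model takes the line as a term beside the transfection. The number of arrays and, for dim probes, the signal over background limit the precision.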
